A study of Homo sapiens with 192 samples.

Results

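The regions described here were 1750 open-chromatin features that lay inside protein-coding genes but away from transcription starts, and that were seen again and again across single nuclei of the human cell line HAP1. They were taken from 80971 features by rule. A feature had to lie on an autosome (76895 did), hold at least 1 read pair in 10 or more nuclei of 2 plates of 96 (8887 did), have no GENCODE transcription start within 1000 bp (4119 did) and overlap the body of a protein-coding gene. The number of nuclei is a measured value that chose the members, so it is given below as a description and supports nothing. The data were plate-based single-nucleus ATAC-seq (snATAC-seq), in which a transposase cuts accessible DNA in nuclei that are then sorted into wells. HAP1 is a near-haploid line derived from the chronic myeloid leukemia line KBM-7, which grows attached to the dish. All nuclei came from one pool of untreated cells that were labeled with concanavalin A-based sample barcodes (CASB) or left unlabeled, in equal numbers, and the label of a nucleus is not given in the sources used here. The first number of a nucleus's title was read as its plate, which the labels do not spell out. The 2 plates of 96 nuclei counted as 1 sample each, and no p-value was made from nuclei.

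Most accessible chromatin of a cell outside promoters lies in introns and between genes. Such distal sites are typically enhancers, bound by transcription factors that recognize short DNA words, or sites of the insulator protein CTCF, and their use differs more between cell types than that of promoters. First introns often hold regulatory elements of their own gene, whereas an element in a later intron may act on the gene it lies in or on a neighbor.

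Members with 4 such words near their centers are shown first, since the shares of features with these words are compared below. The following were seen in the most passing nuclei among members with the POU word ATGCAAAT, the word of the octamer-binding POU factors, within 50 bp of the center. Each is the center with 50 bp on both sides, on the plus strand of hg38, with the word in capitals.
TRIM71 chr3:32843873-32843973: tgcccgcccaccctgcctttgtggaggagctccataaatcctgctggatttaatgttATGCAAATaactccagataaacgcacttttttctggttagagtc
SPAG16 chr2:213688354-213688454: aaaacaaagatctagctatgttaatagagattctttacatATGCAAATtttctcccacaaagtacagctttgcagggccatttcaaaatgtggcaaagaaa
SEMA3D chr7:85156803-85156903: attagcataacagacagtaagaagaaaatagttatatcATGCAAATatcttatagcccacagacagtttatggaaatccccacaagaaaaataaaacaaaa

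For the SOX word AACAATG, or CATTGTT on the other strand, which SOX factors recognize through their HMG domain, the 3 members of the most passing nuclei with it within 50 bp of the center were these.
ST7 chr7:117200897-117200997: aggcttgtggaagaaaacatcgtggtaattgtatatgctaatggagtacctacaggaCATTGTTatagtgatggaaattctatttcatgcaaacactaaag
SYT9 chr11:7319531-7319631: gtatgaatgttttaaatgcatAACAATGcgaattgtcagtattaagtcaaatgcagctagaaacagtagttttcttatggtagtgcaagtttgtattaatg
CNTNAP2 chr7:146991765-146991865: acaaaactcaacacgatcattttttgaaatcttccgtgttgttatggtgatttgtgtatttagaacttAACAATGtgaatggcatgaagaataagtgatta

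For the AP-1 word TGACTCA, or TGAGTCA on the other strand, bound by FOS and JUN dimers, the 3 chosen with the same 50 bp limit were these.
SLC9C2 chr1:173507245-173507345: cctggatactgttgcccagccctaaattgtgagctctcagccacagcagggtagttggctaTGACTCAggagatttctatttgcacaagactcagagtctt
CHST9 chr18:26981744-26981844: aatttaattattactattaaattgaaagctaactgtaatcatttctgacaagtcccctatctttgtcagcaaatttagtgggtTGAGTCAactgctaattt
KDM4C chr9:6955401-6955501: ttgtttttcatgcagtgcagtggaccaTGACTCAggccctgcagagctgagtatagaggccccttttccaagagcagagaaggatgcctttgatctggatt

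For the TEAD word GGAATGT, or ACATTCC on the other strand, bound by the TEAD factors of the Hippo pathway, the 3 within that limit were these.
PPFIBP2 chr11:7595361-7595461: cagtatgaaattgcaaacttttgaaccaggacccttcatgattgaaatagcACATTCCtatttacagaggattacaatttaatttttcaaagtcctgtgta
RDX chr11:110174307-110174407: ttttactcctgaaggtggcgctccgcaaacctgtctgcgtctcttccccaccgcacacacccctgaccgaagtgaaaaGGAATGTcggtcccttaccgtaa
CALCR chr7:93476808-93476908: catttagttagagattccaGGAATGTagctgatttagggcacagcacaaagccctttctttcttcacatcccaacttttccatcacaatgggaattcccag

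Some nuclei stood apart. Nuclei numbered 37 to 48, 73 to 84 and 85 to 96 of a plate shared features with each other far more than other nuclei did. Of 25114 features seen in exactly 2 nuclei, 17841 (71%) were seen in 2 nuclei at the same position of these 3 groups of numbers, which make up 72 of the 18336 possible pairs of nuclei (0.393%). These numbers hold 72 nuclei (37.5%) and gave 49.9% of all detections of members, against 48.8% for recurrent features at starts, 60% in intragenic features of 1 to 9 nuclei and 55.3% in all autosomal features. When nuclei at the same position were merged into 1 unit, 1415 of the 1750 members (80.9%, exact 95% interval 78.9 to 82.7) were still seen in 10 or more units, against 87.4% of recurrent features at starts and 81.6% of those between genes. When the 72 nuclei were left out, 303 members still had 10 or more of the remaining 120 nuclei. Units are therefore given beside the nuclei of the members named by their nuclei. They count nuclei whether or not these passed the limit given below, whereas nuclei given by plate are passing ones. The units of a member can thus exceed its passing nuclei of both plates.

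Depth was low. In plate 1, nuclei held between 30 and 12449 read pairs in features with a median of 1522.5, and in plate 2 between 20 and 15351 with a median of 1702.5. A nucleus passed with more than 300 features among those seen in more than 1 nucleus, as in the methods of the study, and 83 nuclei of plate 1 and 79 of plate 2 did. Members took 5.91% of the read pairs of passing nuclei in plate 1 (exact 95% interval 5.82 to 6.01) and 6.26% in plate 2 (6.16 to 6.36). The intervals of the plates did not overlap, but they cover only the counting error of read pairs and not the spread between nuclei. In single passing nuclei the share ran from 0.798% to 9.95% in plate 1 (median 6.04%). In plate 2 it ran from 2.87% to 9.84% (median 6.39%). A passing nucleus held a read pair in 4 to 498 members in plate 1 and in 20 to 569 in plate 2. Detection followed depth. In the shallowest 54 passing nuclei, a member was seen in 2.62% of nuclei on average, in the middle 54 in 6.49%, and in the deepest 54 in 16.5%. The deepest to shallowest ratio was 6.29 for members, 6.82 for recurrent features at starts and 5.83 for those between genes. Closed chromatin and missed reads cannot be told apart in a nucleus where a member was not seen.

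The typical member was barely above the threshold. The median was 12 nuclei, 385 members were seen in exactly 10 nuclei and 289 in 11, while 506 intragenic features just outside the rule were seen in 9. The features of 9 and of 10 nuclei had a median GC content of 38.9% and 38.1%, and 24.1% and 23.1% of them lay in first introns. Only 11% of members were seen in 20 or more nuclei, and 24 members in 30 or more. A member had between 10 and 70 read pairs over all nuclei with a median of 15. Nuclei with a member mostly had a single read pair there (83.7% of detections), at 1.20 read pairs per positive nucleus, against 1.26 at starts and 1.23 between genes. The most read pairs of a member in 1 nucleus were 8.

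Members were assigned to a part of the gene by the base at the center of the feature in the canonical transcript, an exon being preferred to a first intron and a first intron to another intron. Later introns held 1060 members (60.6%), first introns 391 (22.3%), exons 65 (3.71%), and 234 (13.4%) overlapped a gene body with a center outside the canonical transcript, 225 of them with the center in the gene body. When the center base was read in any protein-coding transcript in place of the canonical one, first introns held 46.2% of members and 43.3% of the sequence. With canonical transcripts, the shares of gene-body sequence far enough from starts to hold a member were 63.8%, 20.1%, 4.37% and 11.7% in the order given. First introns held 1.82 members per Mb (exact Poisson 95% interval 1.65 to 2.01), other introns 1.56 (1.47 to 1.66), exons 1.40 (1.08 to 1.78), and gene bodies outside the canonical transcript 1.81 (1.58 to 2.06, from the 225). The density in first introns over that in other introns was 1.17 (95% interval 1.04 to 1.31 by counting error), and 1.12 with any transcript. The same order was seen among intragenic features of 1 to 9 nuclei, with 23.5 per Mb in first introns and 21.2 in other introns. Between genes, recurrent features had a density of 1.68 per Mb, within the range of the gene-body classes.

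**Figure D1:**
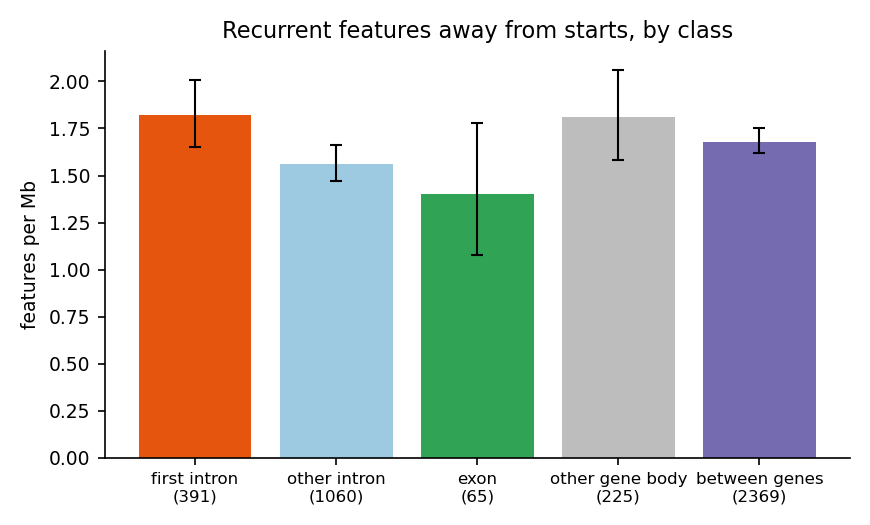
Density of recurrent features away from starts, in features per Mb of sequence that lies over 1500 bp from every start, for members in 4 classes of gene-body sequence and for recurrent features between genes. Bars are densities, lines are exact Poisson 95% intervals (counting error only), and the number of features with a center in the class is in parentheses; first introns stand at 1.82 and other introns at 1.56.

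First introns held 20.5% (19.7 to 21.4) of the intragenic features of exactly 2 nuclei, 22.7% (21.6 to 23.9) of those of 5 to 9, 22.7% (20.4 to 25.2) of those of 10 to 14 and 21.4% (15.8 to 27.8) of those of 20 or more. The intervals at 2 and at 5 to 9 nuclei did not overlap, and those of members overlapped both. Of the members in introns, 224 lay in the second intron and 836 in the third or a later one. Of the 65 members in exons, 34 had their center in a 3' untranslated region and 31 in coding sequence, and 44 lay in the last exon of the transcript. Members lay a median of 15141 bp from the nearest start (quartiles 5577 and 34918), with a median of 13571 bp in first introns and 17005 bp in other introns. Overlaps were common, since 247 members (14.1%) overlapped another member and 589 (33.7%) had another within 50 kb, so that members are not independent of each other.

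In first introns, the members of the most passing nuclei lay in KCND2, TRIM71, SGCE, EFNB2 and SOAT1. The feature in intron 1 of KCND2, a voltage-gated potassium channel of the A-type current (chr7:120521911-120522911, plus strand gene, 149960 bp from the nearest start), was seen in 16 of 83 passing nuclei of plate 1 (19.3%) and 22 of 79 of plate 2 (27.8%), in 30 units. The feature in intron 1 of TRIM71, an RNA-binding ubiquitin ligase of early development (chr3:32843423-32844423), was seen in 14 nuclei of plate 1 (16.9%) and 19 of plate 2 (24.1%), in 28 units. It is the first of the sequences above, holding the POU word, and its GC content of 48.7% was well over the members' median.

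The feature in intron 1 of SGCE, epsilon-sarcoglycan (chr7:94642545-94643545), lay 1070 bp from the nearest start, just beyond the limit, and was seen in 19 nuclei of plate 1 (22.9%) and 10 of plate 2 (12.7%), in 25 units. Features in intron 1 of EFNB2, a membrane-bound ligand of Eph receptors, and of SOAT1, which esterifies cholesterol, were seen in 15 and 14 nuclei of plates 1 and 2 (EFNB2, 30 units) and in 16 and 12 (SOAT1, 26 units). All 1750 members were seen in both plates.

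In later introns, the most widely seen member lay in intron 2 of KCNH8, a voltage-gated potassium channel (chr3:19272856-19273856). It was seen in 17 nuclei of plate 1 (20.5%, exact 95% interval 12.4 to 30.8) and 26 of plate 2 (32.9%, 22.7 to 44.4), in 35 units, with 66 read pairs. The next was in intron 19 of ERBB4, a receptor tyrosine kinase for neuregulins (chr2:211598885-211599885), with 23 nuclei of plate 1 (27.7%) and 18 of plate 2 (22.8%), in 39 units.

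The member in intron 8 of HHAT, which acylates hedgehog proteins (chr1:210482729-210483729), had 16 and 24 nuclei in plates 1 and 2 (30 units) and the most read pairs, 70. The one in intron 7 of DLG2, a synaptic scaffold (chr11:84514151-84515151), had 18 and 21 (35 units). The one in intron 24 of SLC9C2, of the sodium-proton exchanger family (chr1:173506795-173507795), had 23 and 15 (32 units) and carried the AP-1 word shown above.

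Among exon members, the most widely seen lay in coding exon 26 of SCN7A, a sodium channel (chr2:166405137-166406137), with 21 nuclei of plate 1 (25.3%) and 11 of plate 2 (13.9%), in 31 units. The member in coding exon 9 of CNST, consortin (chr1:246646721-246647721), had 14 and 17 nuclei (23 units). Over all nuclei, passing or not, the median member of every class was seen in 12. The highest count was 33 in exons, 38 in first introns and 44 in other introns.

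The next 3 exon members by the number of passing nuclei were those in the 3' untranslated exon of STON2, an endocytic adaptor (chr14:81263664-81264664), with 12 and 9 nuclei (17 units), in exon 18 of ASPM, a mitotic spindle protein (chr1:197101056-197102056), with 11 and 9 (17 units), and in the 3' untranslated exon of EDNRA, an endothelin receptor (chr4:147542389-147543389), with 12 and 8 (19 units). They lay 3425, 27918 and 10746 bp from the nearest start.

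For 434 of 1750 members (24.8%, exact 95% interval 22.8 to 26.9), the share of passing nuclei differed at least 2-fold between plates, when a plate with fewer than 3 nuclei was set to 3. Over all 8887 autosomal features of 10 or more nuclei the share was 22.8%, and it was 21.4% (20.2 to 22.6) at starts and 24% (22.3 to 25.8) between genes. Of the 434 members, 272 were higher in plate 2 and the rest in plate 1, and at starts 601 of 1020 such features and between genes 302 of 569 were higher in plate 2. Plate 2 had fewer passing nuclei (79 against 83). A count of nuclei exactly 2 times that of the other plate therefore passed only when plate 2 was higher. The direction is thus in part fixed by the rule. With 10 to 15 nuclei behind most members, a 2-fold difference is small in counts, and among members of 20 or more nuclei the share was 8.33%. Without nuclei 37 to 48 and 73 to 96 it was 10.2% (31 of 303). In percentage points of passing nuclei, the largest differences were in FSHR intron 7, the receptor of follicle-stimulating hormone (chr2:48982563-48983563), with 5 nuclei of plate 1 (6.02%, 1.98 to 13.5) and 20 of plate 2 (25.3%, 16.2 to 36.4) and 23 units, in AEBP2, a cofactor of the Polycomb repressive complex 2 (5 and 18 nuclei, 20 units), and in NELL1 intron 16, a secreted protein (10 and 21, 27 units). In the other direction they were in UTP18 intron 11, a ribosome biogenesis factor (chr17:51289384-51290384), with 13 nuclei of plate 1 (15.7%, 8.61 to 25.3) and 2 of plate 2 (2.53%, 0.308 to 8.85) and 13 units, in SWT1 intron 5 (17 and 7, 22 units) and in SPAG16 intron 10 (17 and 7, 22 units), the second of the POU sequences above. These 6 were chosen for their difference, so it is a description.

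**Figure D2:**
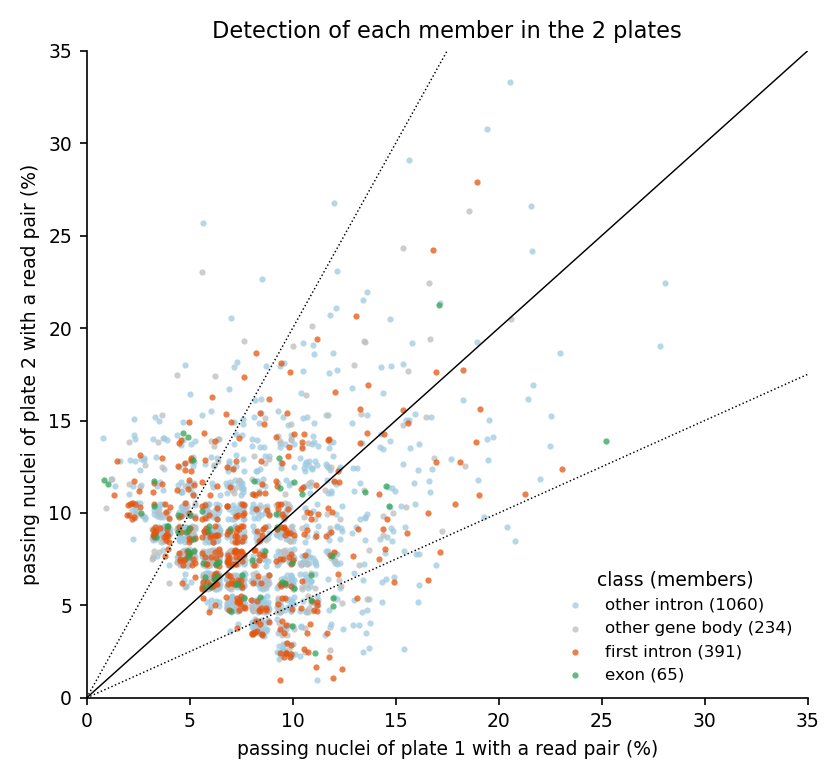
Share of passing nuclei with a read pair in each of the 1750 members, plate 1 (83 nuclei) against plate 2 (79 nuclei), in percent. Points are members, colored by class and jittered within 0.45 percentage points so that equal values do not hide each other; the solid line marks equal shares and the dotted lines a 2-fold difference. Most points lie between the dotted lines, since 434 members (24.8%) differed at least 2-fold.

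Members were AT-rich. Their sequence had a median GC content of 38.5% (exact 95% interval of the median 38.3 to 38.8), against 60.3% at recurrent starts, 38.7% in recurrent features between genes and 40.0% in intragenic features of 1 to 9 nuclei. The observed-to-expected ratio of CpG was 0.189 at the median member and 0.764 at recurrent starts. First introns had a median of 39.5% and other introns 38.1%, and a GC content over 50% was found in 12.5% of first-intron members, 4.81% of other-intron members and 29.2% of exon members. None of the members (0 of 1750) shared a run of 31 bases with the mitochondrial genome, whereas 4 of all autosomal recurrent features did.

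The words of 25 consensus sequences were searched on both strands within 100 bp of the center. The share of members with the SOX word was 10.1% (exact 95% interval 8.69 to 11.6) and with the POU word 7.49% (6.30 to 8.82). In intragenic features of 1 to 9 nuclei they were 5.55% (5.26 to 5.85) and 3.34% (3.11 to 3.57), at recurrent starts 1.93% and 1.41%, and in all autosomal features 5.02% and 3.22%. For POU and SOX the intervals of members lay above those of the other intragenic features. These sets were split by the number of nuclei, which chose the members, so this is a description. The intervals treat features as independent, although some members overlap each other. Recurrent features between genes had 8.61% and 7.51%, with intervals that overlapped those of members.

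The AP-1 word was in 6.17% of members (5.09 to 7.40), in 4.36% (4.10 to 4.63) of intragenic features of 1 to 9 nuclei in 1.57% of recurrent starts, in 6.46% (5.50 to 7.52) of recurrent features between genes and in 4.05% of all autosomal features. The TEAD word was in 3.94% of members (3.08 to 4.96), 3.65% of intragenic features of 1 to 9 nuclei and 5.28% (4.41 to 6.25) of recurrent features between genes. Members and recurrent features between genes thus had overlapping intervals for AP-1 and TEAD. In members and in intragenic features of 1 to 9 nuclei, the RUNX word TGTGGTT was in 5.66% and 4.70%, and the GATA word AGATAAG in 2.74% and 3.17%. For TEAD, RUNX and GATA the intervals of members contained or met the shares of the less frequent features. In all autosomal features these 3 words were found in 3.33%, 4.16% and 2.72%. The SP/KLF word GGGGCGGGG, frequent in promoters, was in 0.857% of members (0.481 to 1.41), 15.6% of recurrent starts, 0.471% (0.387 to 0.567) of intragenic features of 1 to 9 nuclei and 3.02% of all autosomal features.

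**Figure D3:**
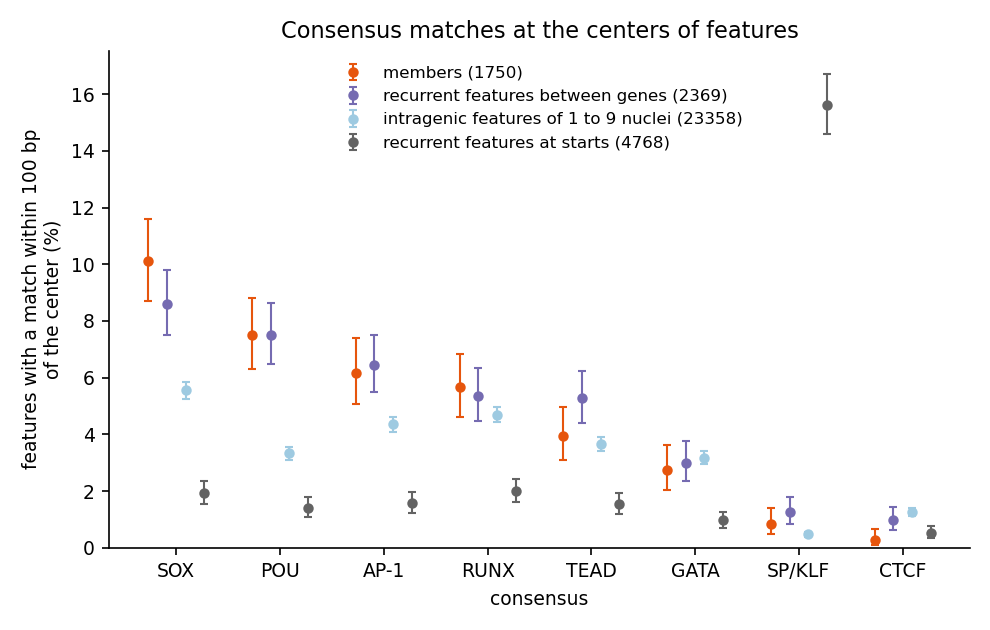
Share of features, in percent, with a consensus word within 100 bp of the center on either strand, for members and 3 other sets of features (numbers in parentheses). Points are shares and lines are exact 95% intervals (counting error only); for SOX and POU the members stand at 10.1% and 7.49%, against 1.93% and 1.41% at recurrent starts, while SP/KLF stands at 15.6% at starts.

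The POU, SOX and AP-1 words were more frequent near the center than at the ends, although most members with a word anywhere held it only beyond 100 bp from the center (18.5%, 28.2% and 19.1% of members had it anywhere). In the outer 100 bp on each side of a member, the POU word was found in 2.06% of members, the SOX word in 5.43% and the AP-1 word in 3.83%, against 7.49%, 10.1% and 6.17% near the center. At intragenic features of 1 to 9 nuclei the outer shares were 1.90%, 4.23% and 3.07%, against 3.34%, 5.55% and 4.36% near the center. Recurrent features between genes had 2.79%, 4.31% and 3.59% in the outer part, against 7.51%, 8.61% and 6.46% near the center. The rise toward the center was thus not particular to members. For TEAD the members had 3.60% in the outer part and 3.94% near the center. In bins of 50 bp the POU word was found in 2.74% of members in the bin just after the center, in 1.6% in the bin just before it and in 0.400% in the outermost bin before it. For SOX the bins just after and just before the center had 3.37% and 2.00%, and for AP-1 2.17% and 1.26%. The members' GC content near the center (38.8% at the median within 100 bp of it) was close to that of the whole feature.

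**Figure D4:**
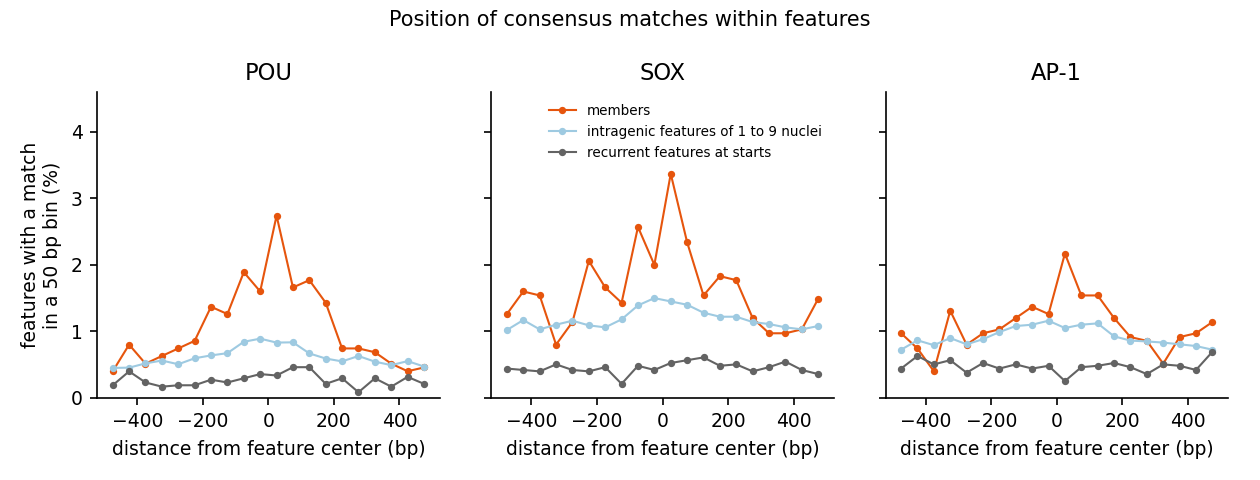
Share of features, in percent, with the POU, SOX or AP-1 word in 50 bp bins of distance from the feature center (bp), for members, intragenic features of 1 to 9 nuclei and recurrent features at starts. In members the POU word stands at 0.400% in the outermost bin on the left, 1.6% in the bin just before the center and 2.74% in the bin just after it, where SOX reaches 3.37% and AP-1 2.17%.

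By the number of nuclei, which chose the members, the shares are a description. For POU the share was 2.35% (2.07 to 2.66) in intragenic features of 1 to 2 nuclei, 4.82% at 5 to 9, 6.77% (5.41 to 8.34) at 10 to 14, 9.14% at 15 to 19 and 8.85% (5.24 to 13.8) at 20 or more. For SOX it was 4.09% (3.72 to 4.49), 7.31%, 10% (8.38 to 11.9), 9.70% and 10.9% (6.90 to 16.2) in the same order. For AP-1 it was 3.74% (3.39 to 4.12), 4.91%, 5.68% (4.44 to 7.15), 6.65% and 8.33% (4.84 to 13.2), and for TEAD 2.92%, 4.56%, 3.76%, 4.43% and 4.17%. Just outside and just inside the threshold, at 9 and 10 nuclei, POU was in 5.14% and 5.45%, SOX in 6.52% and 9.61%, and AP-1 in 6.52% and 4.68%. The CTCF word, a 12-letter core searched by name, was found in 0.364% of intragenic features of 1 to 2 nuclei, 2.05% (1.74 to 2.39) at 3 to 4 nuclei, 1.84% (1.50 to 2.24) at 5 to 9 nuclei and 0.251% (0.0517 to 0.731) at 10 to 14 nuclei. Only 5 of 1750 members (0.286%, 0.0928 to 0.665) carried it within 100 bp of the center, 3 of them in exons, against 1.25% (1.11 to 1.40) in intragenic features of 1 to 9 nuclei, 0.971% (0.616 to 1.45) in recurrent features between genes and 1.23% in all autosomal features. The interval of members overlapped that of recurrent features between genes. The 2 members with it within 50 bp lay in 3' untranslated exons of HTR4, a serotonin receptor (13 nuclei, 12 units), and ASCL5, a basic helix-loop-helix factor (11 nuclei, 10 units).

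The intervals of first and later introns overlapped for these words. The POU word was in 6.39% (4.18 to 9.29) of first-intron members and 8.11% (6.54 to 9.92) of other-intron members, the SOX word in 9.97% and 10.5%, and the AP-1 word in 5.63% and 5.85%. Some words share letters. The AP-1 word lies inside the NFE2/BACH word, and the C/EBP word TTGCNNAA, found in 16.6% of members and 11% of all autosomal features, overlapped a POU word in 20 of the 291 members that had it. POU and SOX words were seldom in the same member, since 12 members held both near the center, 4 of them within 20 bp of each other.

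A further 3 words were added after values had been seen, a POU variant ATGCTAAT, a second SOX word ACAAAGG and a homeodomain word AGGATTA. They were found in 4.4%, 10.8% and 8.86% of members and in 1.63%, 6.14% and 4.81% of intragenic features of 1 to 9 nuclei, and in 1.54%, 5.64% and 4.13% of all autosomal features. Together, 504 members (28.8%, 26.7 to 31) held at least 1 of the POU and SOX words, against 15.4% of intragenic features of 1 to 9 nuclei, 26.7% of recurrent features between genes and 7.40% of recurrent starts. Of these 504 members, 38 also held the AP-1 word. A match to a word is a description of the sequence, and no factor was measured here.

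Members lay mostly in long genes. Of 19111 autosomal protein-coding genes, 1156 (6.05%, 5.71 to 6.40) held a member, and 365 held 2 or more. The share was 0.493% for genes under 20 kb, 3.30% for genes of 20 to 100 kb, 21.2% for genes of 100 to 500 kb and 59.9% (54.2 to 65.4) for genes over 500 kb. A longer gene offers more sequence far from starts, so this order is in part fixed by the rule. Per Mb of whole gene, sequence near starts included, the members were 0.612, 0.789, 1.63 and 1.87 in the same order of length.

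The genes with the most members that did not overlap were PTPRD, a receptor tyrosine phosphatase of synapses, with 14 members, 13 of them separate, in 2298757 bp, and GRIK2, a kainate receptor subunit, with 13 in 1118922 bp. All 14 members of PTPRD lay in introns after the first, were seen in 10 to 29 nuclei, and 12 had 10 or more units. GRIK2 had 11.6 members per Mb of gene, against 1.39 over all genes and 1.87 in genes over 500 kb. Its members lay in introns after the first (7) and outside the canonical transcript (6). Of its 13 members, 9 had 10 or more units. CNTNAP2, a neurexin-related adhesion protein, held 9 members, HDAC9, a histone deacetylase, and CDK14, a cyclin-dependent kinase, 8 each, and LRP1B, a giant receptor of the LDL receptor family, 7. CDK14 had 10.8 members per Mb and 7 of its 8 members had 10 or more units, whereas LRP1B had 3.68 per Mb and 4 of 7. For CNTNAP2 and HDAC9, 7 of 9 and 5 of 8 members had 10 or more units. All of these genes were chosen for their number of members, so their densities are a description.

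Gene lists of pathways were then read beside gene length. Of 30 neuronal adhesion and synapse genes, 19 held a member (63.3%, 43.9 to 80.1), led by PTPRD, GRIK2 and CNTNAP2, and their median length of 1217089 bp was far over that of all genes (27877 bp). The share of all genes over 500 kb was 59.9%, within the interval of the list, and per Mb of gene the list had 2.46 members against 1.87 in those genes. Of 54 actin cytoskeleton and adhesion genes, 12 held a member (22.2%, 12 to 35.6), with the most in MYO10, a myosin of filopodia (3), TNS3, a tensin of focal adhesions (2), and PALLD, an actin cross-linker (2). Their median length was 113126 bp, and all genes of 100 to 500 kb had 21.2%.

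Of 35 Hippo and TEAD pathway genes 5 held a member (14.3%), among them WWTR1, which encodes the coactivator TAZ, MOB1B and WWC2. Of 33 TGF-beta and BMP genes 4 did (12.1%), led by the receptor gene BMPR1A with 3 members and 17 per Mb of gene, LTBP1 and TGFBR3. Of 42 AP-1 and MAPK genes 2 did (4.76%), the kinase gene MAP3K5 and BACH1, and of 36 WNT genes 3 did (8.33%), the corepressor genes TLE1 and TLE4 and the factor gene TCF7L2. The median lengths of these 4 lists were 114762, 76057, 43178 and 65320 bp, and the shares of all genes were 21.2% at 100 to 500 kb and 3.30% at 20 to 100 kb. The intervals of the lists were wide (4.81 to 30.3, 3.40 to 28.2, 0.582 to 16.2 and 1.75 to 22.5).

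For lists of cell identity the shares were close to the 6.05% of all genes, within wide intervals. Of 33 hematopoietic genes 2 held a member (6.06%, 0.743 to 20.2), FLI1 and PTPRC, and of 24 epithelial genes 2 did (8.33%, 1.03 to 27), GRHL2 and EHF. Their median lengths were 23688 and 23925 bp, where all genes of 20 to 100 kb had 3.30%, and per Mb of gene they had 0.748 and 3.05 members, against 1.39 over all genes. None of 56 cytosolic ribosomal protein genes did (0 of 56, exact upper limit 6.38%), at a median length of 5595 bp. Of 19 BCR-ABL1 fusion partner and signaling genes 2 did (10.5%, 1.30 to 33.1) at a median length of 107629 bp, one of them ABL2 with 1 member. BCR and ABL1 themselves, the genes joined by the Philadelphia translocation, held 0 members, with 1 and 2 intragenic features away from starts seen in at most 3 and 2 nuclei.

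**Figure D5:**
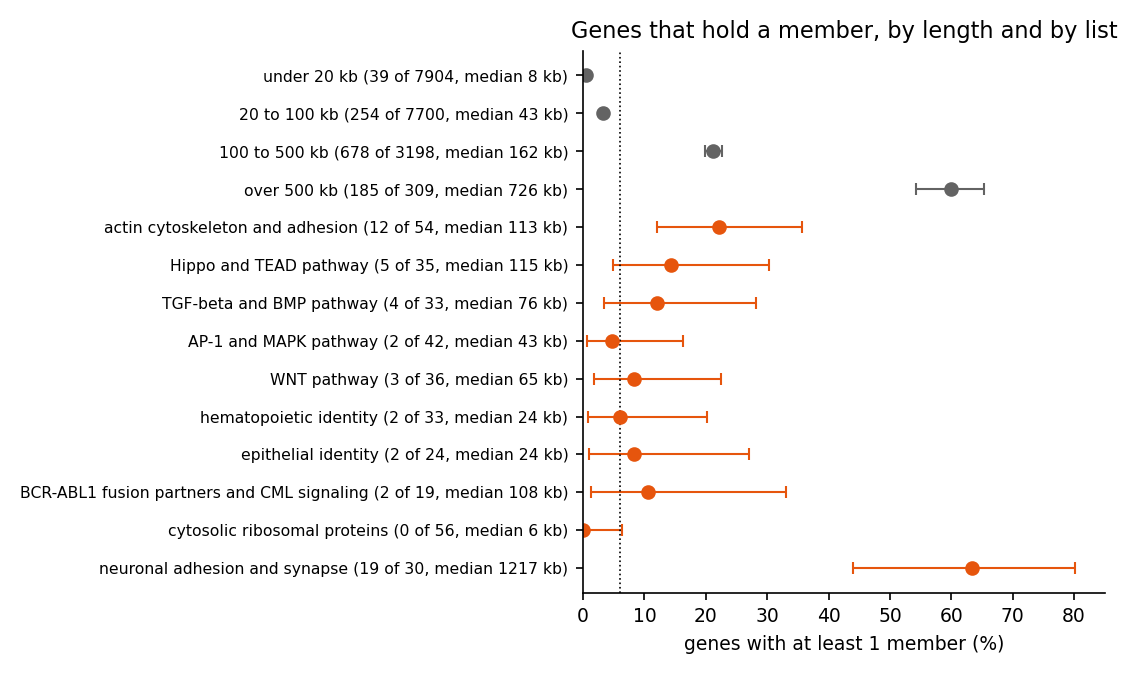
Share of genes with at least 1 member, in percent, for genes grouped by length (gray) and for gene lists (orange), with exact 95% intervals (counting error only); counts and median gene length are beside each name, and the dotted line marks 6.05%, the share of all 19111 genes. The share rises from 0.493% under 20 kb to 59.9% over 500 kb, and the list of neuronal genes stands at 63.3%.

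Members were spread unevenly over chromosomes. Chromosome 7 had the most, 2.75 per Mb of eligible gene body, and chromosomes 19 and 22 had 0, while the median over 22 autosomes was 1.43 per Mb. Chromosome 19 had 230 intragenic features away from starts with a median GC content of 51.1%, and the median on chromosome 22 was 48.4%, against 2057 features with 39.2% on chromosome 7. Chromosomes 16, 17, 20 and 21 had 0.544, 0.325, 0.658 and 0.428 members per Mb. Their intragenic features away from starts had a median GC content of 45.4%, 44.6%, 42.5% and 40.1%. Chromosome 18 had 0.894 members per Mb at a median of 39.5%, close to that of chromosome 7. The low counts were not particular to members, since 3.44% of all features of chromosome 19 and 0.423% of chromosome 22 were seen in 10 or more nuclei, against 13.3% on chromosome 7. The part of GC content in this difference was not tested.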

How the data were processed

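Nuclei of HAP1 cells were profiled by plate-based snATAC-seq. According to the methods, the authors mapped trimmed reads to hg38 with bowtie2, dropped mitochondrial, poorly mapped and duplicate reads within each nucleus, ran MACS2 on the nuclei of both plates jointly, and made each feature from a summit with 500 bp on both sides. The authors deposited unnormalized counts, whole read pairs in each feature for each nucleus from featureCounts (version 1.6.0), so overlapping features share pairs. All count columns were matched to nuclei by title, with 0 left over, and the first number in a title was taken as the plate. Here, counts above 0 were taken as detection. Starts, gene bodies, canonical transcripts and exons came from GENCODE 44 on hg38, and sequence from the GRCh38 genome. Shares carry Clopper-Pearson 95% intervals. These reflect counting error alone and treat features as independent. Named members were the 5 of the most passing nuclei in first introns, other introns and exons. The 3 with the largest plate difference in each direction and the 6 genes with the most separate members were also named. Each of 10 lists gave up to 3 genes that held a member. Up to 3 members outside chromosome 8 were named per AP-1, CTCF and TEAD word, with POU and SOX added later. The values of 1 gene of these lists are not reported here. Members, lists and words were chosen with earlier results of these data known. Functions were tested on simulated data. SciPy and pandas were used.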

Additional observations from a re-analysis of the deposited data

How the results depend on the processing

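No paired analysis was possible because no test was made, and nothing in the labels ties the nuclei that carry the same number in both plates. Under the alternatives, 38 of 68 values stayed within the interval of the reported value (for the number of members, within 1.5 times), 30 moved and 0 reversed. Members were 2.28% of autosomal features, and 9.27% (7126 features) at 5 or more nuclei, 0.250% at 20 or more, 0.394% (303) without nuclei 37 to 48 and 73 to 96, and 0.0221% (17) when a nucleus needed 2 read pairs. At 20 or more nuclei the shares were 8.33% for AP-1, 0% for CTCF, 8.85% for POU, 8.33% for a 2-fold plate difference, 0.973% of genes and 1.26% of read pairs. Without nuclei 37 to 48 and 73 to 96 they were 8.58% for AP-1, 0% for CTCF, 10.2% for plates, 1.44% of genes and 1.67% of read pairs. With nuclei at the same position merged they were 21.2% for plates, 5.22% of genes and 5.25% of read pairs, and with passing nuclei only 6.01% of read pairs. With read pairs scaled to the total of each plate in place of nuclei the plate share was 27.2%. Anywhere in the feature, the words were in 19.1% (AP-1), 1.31% (CTCF), 18.5% (POU) and 28.2% (SOX) of members, and within 50 bp in 3.43% (AP-1), 4.34% (POU) and 5.49% (SOX), as follows from the window. Within 100 bp of the center the median GC content was 38.8%. First introns held 44.9% of members when any transcript and any overlap counted, 46.2% with any transcript and the center base, and 22.1% with any overlap of the canonical transcript, so their share depends on the choice of transcript. The density ratio of first to other introns was 1.11 to 1.19 under the 6 alternatives run, any transcript with the center base included (1.12). The POU and SOX alternatives, the latter pair for first introns, the density ratio with any transcript and the number of members without mitochondrial copies were chosen after seeing the data. Depth limits all of this, since most members rest on 10 to 15 nuclei and 83.7% of their detections were a single read pair.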
